A study of Mus musculus with 4 samples.

Results

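Methylation deserts are described here, meaning stretches of at least 100000 bp of an autosome in which no methylated region was called in any of 4 mouse libraries. Peaks of the 4 deposited lists that overlapped by at least 1 bp were merged into union regions, and the gaps between neighbouring union regions were measured from the first to the last peak of each chromosome. Of 301516 such gaps on the 19 autosomes, 319 were deserts (0.106%). Gaps of that size in both lists of one tissue that held 5 or more peaks in each list of the other tissue were also sought. There were 8 such deserts in islets, among 716 gaps of 100000 bp or more in both islet lists (1.12%), and 45 in sperm, among 916 (4.91%). All of these were chosen from the peak positions, so their number, length and place are a description with no test.

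The study used ICR mice, an outbred strain. T2D founders were males raised on high-fat feed (33% of the energy from fat). At 12 weeks they were injected with a small amount of streptozotocin, a toxin of the insulin-producing beta cells. They stayed on that feed for 4 more weeks and were kept as models of type 2 diabetes where glucose was 7 to 11 mM. Control founders received a control diet, and both were mated at 16 weeks with females on standard diet. The 4 libraries came from islets of 3-week-old offspring of T2D fathers, islets of 3-week-old offspring of control fathers, sperm of 16-week-old T2D founders and sperm of 16-week-old control founders. Material came from 6 animals per group and gave 1 library per group, and whether it was pooled before sequencing is not stated. The sex of the offspring is not given. Differences between conditions therefore have no replicate check.

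Methylation was measured by MeDIP-seq, in which an antibody against 5-methylcytosine pulls down sheared DNA for sequencing. In mammals this mark sits almost entirely on CG pairs, which are unevenly spread over the genome, and the antibody recovers DNA best where many methylated CG pairs lie close together. A stretch without peaks may hold few CG pairs, hold unmethylated ones, or consist of unassembled or repeated sequence to which reads cannot be placed. Islets are the endocrine clusters of the pancreas, and sperm carry a largely methylated genome set up during germ cell development. Coordinates are those of mm9. No genome or annotation on mm9 was used here, so the sequence, the assembly gaps and the genes inside the deserts were not analysed here, and the kinds of stretch just named cannot be told apart.

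The 319 deserts covered 72.3 Mb, or 2.99% of the 2415 Mb between the first and last autosomal peaks. They held 3.51% of all gap length, although the median gap between union regions was only 3911 bp and 99% of gaps were shorter than 46.5 kb. Most deserts were only a little longer than the limit. The median was 126 kb, the quartiles were 109 kb and 172 kb, and 221 deserts (69.3%) were shorter than 150000 bp. Another 2195 gaps measured from 50000 bp to just under 100000 bp.

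The deserts just inside the limit lay on chromosome 13 from 87269931 to 87369963 (100033 bp), on chromosome 2 from 95719030 to 95819127 (100098 bp) and on chromosome 7 from 55505723 to 55605918 (100196 bp). The gaps just outside it lay on chromosome 6 from 69488454 to 69588400 (99947 bp), on chromosome 12 from 62726617 to 62826438 (99822 bp) and on chromosome 3 from 70723992 to 70823615 (99624 bp). The limit thus cut through a continuous range of lengths. The desert of median length, on chromosome 7 from 66754910 to 66880554, measured 125645 bp.

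A few deserts were far longer. There were 64 of at least 200000 bp, 22 of at least 500000 bp and 9 of at least 1000000 bp, and the last group alone made up 26.5% of all desert length. The longest ran on chromosome 7 from 39314293 to 46457921 and measured 7143629 bp, which was 9.89% of the total. Around it, the library's own peak-free stretch was 7484102 bp in T2D islets, 7143629 bp in control islets, 7617814 bp in T2D sperm and 7536236 bp in control sperm. The control islet list therefore set both of its edges.

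The next 2 in length were the most sharply bounded of the 10. On chromosome 8 from 20037668 to 22043176 (2005509 bp) the stretch was 2009462 bp in T2D and 2005509 bp in control islets, and 2011385 bp in T2D and 2011138 bp in control sperm. On chromosome 1 from 85341013 to 87344431 (2003419 bp) it was 2007297 bp and 2007225 bp in T2D and control islets, and 2003419 bp and 2003762 bp in T2D and control sperm. At both places peaks of all 4 libraries stopped within a few kb of each other on either side. The right-hand flanking region was called in all 4 libraries in both cases.

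The fourth lay on chromosome 8 from 56209073 to 57919327 (1710255 bp), where the stretch was 1734858 bp in T2D and 1710264 bp in control islets, and 1788756 bp in T2D and 1797100 bp in control sperm. The fifth lay towards the end of chromosome 2, from 175002619 to 176548368 (1545750 bp), with 1545750 bp in T2D and 1610160 bp in control islets and 1598787 bp in T2D and 1605852 bp in control sperm. These lengths differed little between libraries. The sixth and seventh did not behave in this way.

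The sixth, on chromosome 7 from 22165252 to 23555778 (1390527 bp), and the seventh, on the same chromosome from 20669155 to 21896823 (1227669 bp), were parts of a single longer stretch in sperm. That stretch measured 3477696 bp in T2D and 3482995 bp in control sperm and was divided by islet peaks. In islets the sixth measured 1390527 bp in T2D and 1528934 bp in control, and the seventh 1241612 bp in T2D and 1359104 bp in control. The reverse held for the eighth, on chromosome 7 from 7720000 to 8836141 (1116142 bp). There the islet stretches were longer, at 1508730 bp in T2D and 1371486 bp in control, than the sperm stretches, at 1119160 bp in T2D and 1119168 bp in control.

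The ninth, on chromosome 14 from 6300369 to 7310017 (1009649 bp), was bounded differently in the islet libraries, with 1011285 bp in T2D and 2164390 bp in control islets. In sperm it measured 1083145 bp in T2D and 1258291 bp in control. The tenth, on chromosome 12 from 23344126 to 24327435 (983310 bp), measured 1160567 bp in T2D and 1149890 bp in control islets, and 1080505 bp in T2D and 1378241 bp in control sperm. Over all 319 deserts, the library's own stretch was a median 1.14 times as long as the shared desert in T2D islets and 1.13 times in control islets, against 1.32 times in T2D and 1.37 times in control sperm. Sperm stretches thus ran further past the shared edges. A stretch more than 1.5 times as long as the shared desert was seen at 82 deserts in T2D and 72 in control islets, and at 119 in T2D and 134 in control sperm.

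**Figure D1:**
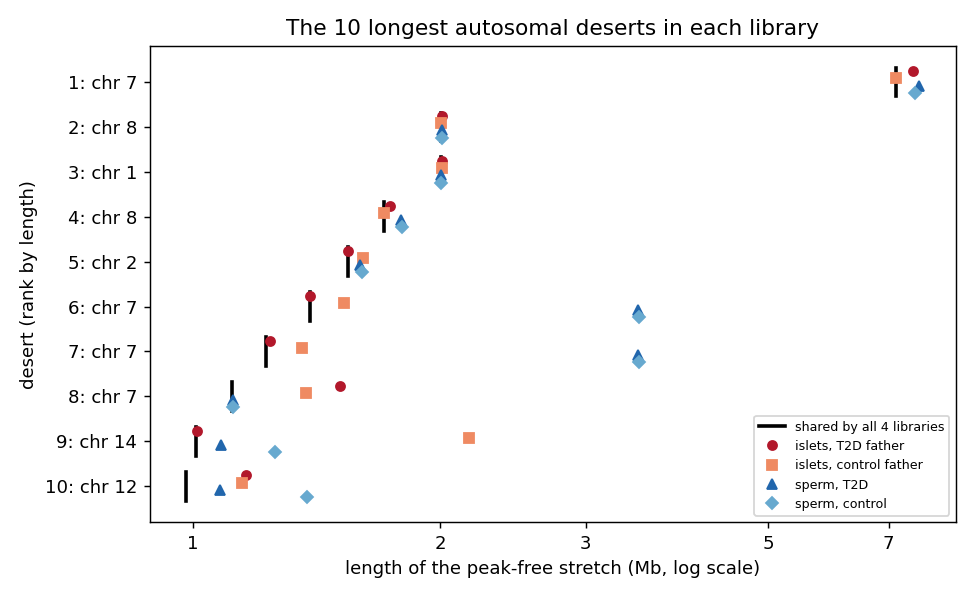
Length of the peak-free stretch (Mb, log scale) at the 10 longest autosomal deserts. Black ticks mark the desert shared by all 4 libraries and symbols each library's own stretch, which at the sixth and seventh deserts reached 3477696 bp in T2D sperm and 3482995 bp in control sperm.

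Deserts were unevenly shared among chromosomes. Chromosome 14 held 39, chromosome 7 held 38 and chromosomes 4 and 12 held 33 each. These 4 chromosomes carried 44.8% of the deserts and 53.2% of desert length on 22.5% of the autosomal span. At the other extreme were chromosome 18 with 3 deserts, chromosome 19 with 4 and chromosomes 10, 11 and 16 with 5 each. Chromosome 1, with the longest span, held 24.

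By share of the chromosome's span, chromosome 7 came first at 11.6%, followed by chromosome 14 at 6.79%, chromosome 12 at 5.29%, chromosome 8 at 5.04% and chromosome 4 at 4.26%. The lowest shares were 0.402% on chromosome 18 and 0.521% on chromosome 11. Without its longest desert the share of chromosome 7 was 6.85%, and that of chromosome 14 without its own was 5.97%. The single stretch of 7143629 bp thus accounted for much of the lead of chromosome 7.

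**Figure D2:**
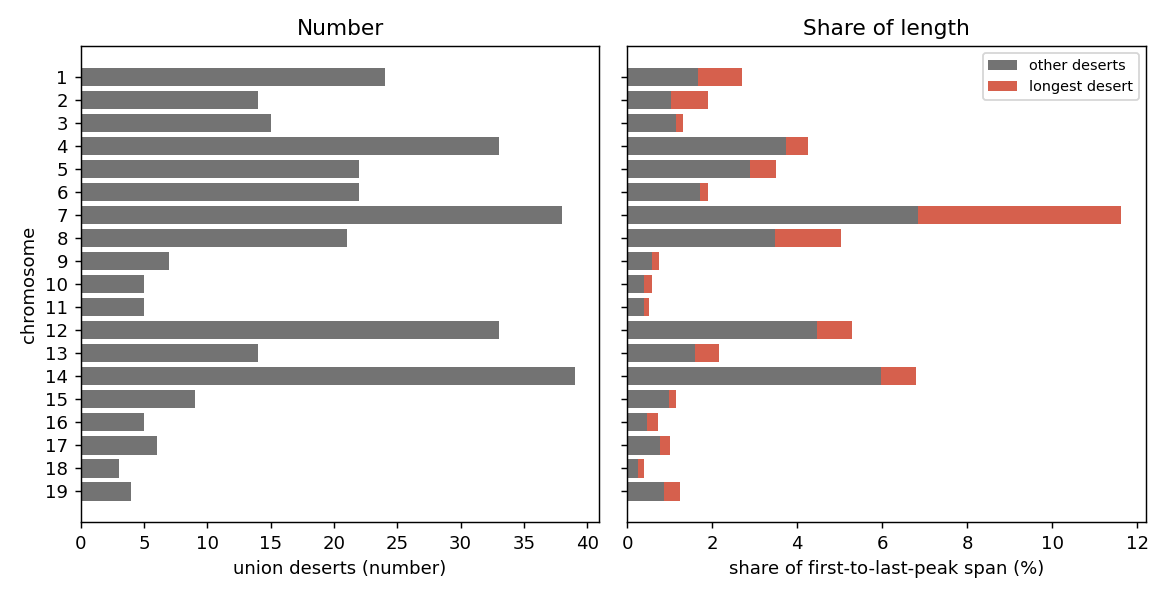
Number of union deserts per autosome (left) and their share of the span from the first to the last peak in percent (right), with the longest desert of each chromosome in red. Chromosomes 14 and 7 lead in number with 39 and 38, and chromosome 7 leads in share at 11.6%.

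The deserts lay along the whole length of the chromosomes, with fewer towards the distal end. When each span was divided into 10 equal parts, the proximal part held 43 deserts (13.5%) and the next 40, whereas the ninth held 12 and the last 22 (6.90%). By length the 2 most proximal parts held 10.7 and 12.9 Mb, against 1.84 Mb in the ninth and 5.16 Mb in the last. The part after them held 11.8 Mb, but 4.68 Mb without the longest desert of all, and the fourth to eighth held 4.12 to 7.64 Mb. Mouse chromosomes have their centromere at the proximal end. Within 5 Mb of the first peak there were 17 deserts (5.33%), and within 5 Mb of the last peak 10 (3.13%). Each of these ends made up 3.93% of the autosomal span, so both shares were near it. Among the 64 deserts of at least 200000 bp, a limit chosen after the values were seen, 21.9% lay in the proximal and 10.9% in the last part. Most of these long proximal deserts lay on chromosomes 14 and 7. So did many of the 43 deserts of the proximal part and most of its 10.7 Mb. The proximal shares therefore do not describe the autosomes in general.

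Part of the deserts lay in chains. Linking those separated by at most 100000 bp, a distance chosen after the data were seen, gave 33 chains with 85 deserts (26.6%), of which 22 had 2 members and 11 had 3 or more. The largest joined 8 deserts on chromosome 5 from 93860165 to 96250095. Of its 2.39 Mb, 93.6% was desert, and only 10 peaks of T2D islets, 6 of control islets, 2 of T2D sperm and 6 of control sperm lay in it. A chain of 4 on chromosome 7 from 7464656 to 9585955 (2.12 Mb, 97.4% desert) held 5 peaks in each islet list and 2 in each sperm list. On chromosome 14, a chain of 4 from 3204455 to 4510762 (1.31 Mb, 86.5% desert) and one of 3 from 4675539 to 6116180 (1.44 Mb, 93.3%) followed each other near the proximal end.

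The few regions called between chained deserts were mostly seen in 1 or 2 libraries. Of these 159 regions, 47.8% were called in 1 library and 9.43% in all 4, against 35.5% and 21.7% of all 301550 autosomal union regions. T2D islets had a peak in 55.3% and control islets in 60.4% of them, against 30.2% for T2D sperm and 31.4% for control sperm. Over all union regions these shares were 54.0%, 54.1%, 58.4% and 57.9% in the same order of libraries. The 624 regions that flanked a desert showed the same order, with 54.3% in T2D islets, 55.0% in control islets, 38.1% in T2D sperm and 38.3% in control sperm. A single peak in 1 library is enough to end a desert, so the rule itself favours such regions. Each islet list held fewer autosomal peaks (163824 in T2D, 164458 in control) than each sperm list (176823 in T2D, 175523 in control).

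Peaks were sparse around the deserts as well as in them. In the first 20 kb beyond the flanking region, outside other deserts, density was 31.6 peaks per Mb in T2D islets, 30.1 in control islets, 25.7 in T2D sperm and 24.5 in control sperm. This was 45.1%, 42.8%, 34.1% and 32.7% of each library's autosomal mean outside deserts, which was 69.9, 70.2, 75.5 and 74.9 peaks per Mb. From 100 to 500 kb away, density had reached 59.7% and 59.3% of the mean in T2D and control islets, and 49.2% and 49.4% in T2D and control sperm. The deserts therefore sat inside wider stretches of low peak density, and relative to each library's own mean the depletion was deeper in sperm in every 20 kb step. Steps around neighbouring deserts overlap, so some peaks were counted more than once.

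**Figure D3:**
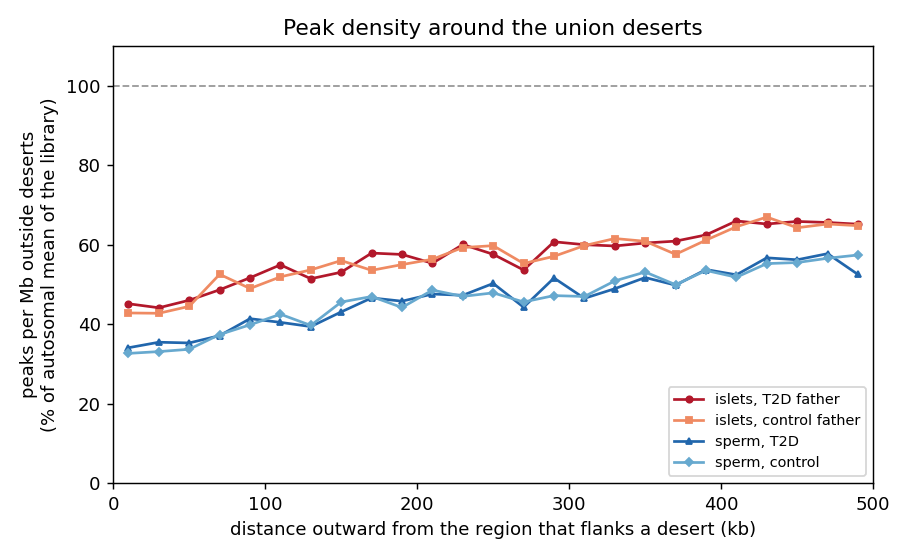
Peaks per Mb outside deserts, as a percentage of each library's autosomal mean (dashed line at 100), in 20 kb steps outward from the region that flanks each desert. The first step lies at 45.1% and 42.8% in T2D and control islets and at 34.1% and 32.7% in T2D and control sperm, and no library reaches its mean within 500 kb.

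The peaks next to deserts held fewer reads than other peaks but had a higher deposited enrichment, which is the authors' ratio of reads in the peak over the caller's background. The nearest peak of each list on either side of a desert held a median of 30 tags (reads) in T2D islets, against 39 in other autosomal peaks of that list, and 28 against 39 in control islets. In sperm the medians were 34 against 50 tags in either condition. Median width was 784 bp against 901 bp in T2D islets, 760 bp against 868 bp in control islets, 796 bp against 982 bp in T2D sperm and 828 bp against 991 bp in control sperm. Enrichment went the other way, with 8.15 against 7.25 in T2D islets, 8.0 against 7.33 in control islets, 7.67 against 6.74 in T2D sperm and 7.69 against 6.77 in control sperm. The values overlapped widely. In T2D islets the quartiles of enrichment were 6.91 and 9.78 for flanking peaks and 6.0 and 8.66 for other peaks. Every listed peak had a score of at least 50, and flanking and other peaks were not matched for tags or width. The part of that score limit in the opposite directions was not tested.

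Very tall peaks were not a general feature of desert edges. Few flanking peaks exceeded the 99th percentile of tags of their list. They were 9 in T2D islets (1.51%), 4 in control islets (0.672%), 2 in T2D sperm (0.356%) and 4 in control sperm (0.709%). Among other peaks the share was 0.975% to 0.996%. The shares of flanking peaks rest on these small counts, and their differences were not tested. The tallest flanking peak held 330 tags in T2D islets, 255 in control islets, 437 in T2D sperm and 456 in control sperm.

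Taken singly, each library had many more deserts than the 319 it shared with the others. T2D islets had 1287 autosomal gaps of at least 100000 bp (0.786% of that list's gaps) and control islets 1415 (0.861%). T2D sperm had 1471 (0.832%) and control sperm 1510 (0.86%). They covered 8.90% of the autosomal span in T2D islets, 9.51% in control islets, 10.8% in T2D sperm and 11.1% in control sperm. The shared deserts made up 33.6% and 31.5% of the desert length of T2D and control islets, and 27.8% and 27.0% of that of T2D and control sperm. Leaving out 1 library gave 451 shared deserts without T2D islets, 418 without control islets, 433 without T2D sperm and 407 without control sperm. Of those found without T2D islets, 222 held at least 1 T2D islet peak, and 136 of these held exactly 1.

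The T2D islet list had fewer deserts than the control islet list. The ratio of T2D to control was 0.910 (exact 95% interval 0.843 to 0.982), summed length was 214.8 Mb against 229.7 Mb, and the number was lower in T2D on 16 of 19 autosomes. Sperm gave a ratio of 0.974 (0.906 to 1.05), 260.4 Mb against 267.5 Mb, and a lower number in T2D on 10 autosomes and a higher one on 7. The intervals cover counting error only, and with 1 library per group neither ratio is a test of the father's condition. The islet ratio depended on the limit and on the peaks kept. At 50000 bp it was 0.969 (0.936 to 1.00), and at 200000 bp it turned to 1.06 (0.852 to 1.32), with 175 T2D and 165 control deserts. At 100000 bp it was 0.970 (0.925 to 1.02) with the best 50% of each list by score. It stayed at 0.909 (0.842 to 0.981) with equal list lengths and at 0.912 (0.849 to 0.979) with at least 20 tags. With X added it was 0.911 (0.852 to 0.973).

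**Figure D4:**
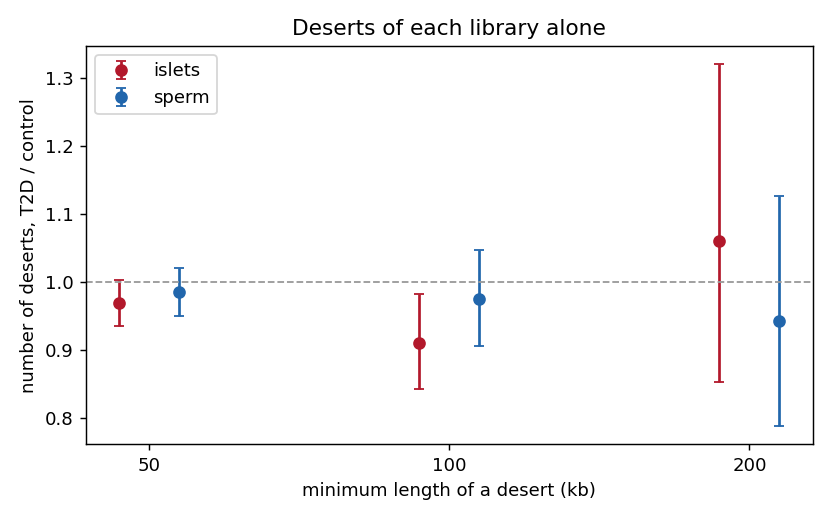
Number of deserts of each library alone in T2D over control, at minimum lengths of 50, 100 and 200 kb, in islets (red) and sperm (blue). Points are ratios and bars exact 95% intervals for counting error. At 100 kb the islet ratio is 0.910, and at 200 kb it is 1.06 with an interval that includes 1.

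Of T2D islet desert length, 63.4% was also desert in control islets, and 59.3% of control length was desert in T2D islets. In sperm the shares were 69.2% of T2D and 67.3% of control length. By number, many were interrupted by only 1 or 2 peaks of the other condition. Of the T2D islet deserts, 29.4% held no control islet peak and 51.7% held 1 or 2. Only 41 (3.19%) held 5 or more, against 53 (3.75%) of the control islet deserts that held 5 or more T2D peaks. In sperm these counts were 34 (2.31%) for T2D deserts and 40 (2.65%) for control deserts.

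The clearest deserts of a single islet library were as follows, chosen by the number of peaks in the other condition. On chromosome 6 from 70171631 to 70641547, T2D islets had 0 peaks over 470 kb where control islets had 11, T2D sperm 4 and control sperm 2. On chromosome 7 from 11872999 to 12159045 (286 kb), T2D islets had 0 and control islets 11 peaks, with 0 in T2D sperm and 1 in control sperm. On chromosome 15 from 21820185 to 22035886 (216 kb), T2D islets had 0 and control islets 10 peaks. There the sperm libraries differed in the same direction, with 1 peak in T2D and 9 in control sperm.

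The reverse pattern, with islet peaks in the T2D list only, was seen on chromosome 12 from 115036877 to 115399265 (362 kb). It had 8 T2D and 0 control islet peaks, and 3 T2D and 2 control sperm peaks. The pattern was also seen on chromosome 3 from 114296073 to 114614373 (318 kb), with 7 and 0 peaks in islets and 4 and 3 in sperm. A further one lay on chromosome 6 from 61557196 to 61781754 (225 kb), with 7 and 0 peaks in islets. The sperm peaks there numbered 9 in T2D and 8 in control. Both sperm libraries thus had peaks in each of these stretches. These deserts were picked as extremes among 1287 T2D and 1415 control islet deserts, and the difference between the conditions was not tested.

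In sperm, T2D had 0 and control 7 peaks on chromosome 12 from 19998484 to 20315969 (317 kb), where T2D islets had 13 and control islets 12. The same counts of 0 and 7 were found on chromosome 10 from 100633350 to 100796453 (163 kb), with 5 and 1 peaks in T2D and control islets, and on chromosome 6 from 89358994 to 89472528 (114 kb), with 4 in each islet list. In the opposite direction, T2D sperm had 9 and control sperm 0 peaks on chromosome 4 from 3949493 to 4077266 (128 kb), with 4 and 7 peaks in T2D and control islets. On chromosome 2 from 176839863 to 177040763 (201 kb) the counts were 8 and 0 in sperm, with 18 T2D and 12 control islet peaks. On chromosome 1 from 13952076 to 14151467 (199 kb) they were 8 and 0, with 4 peaks in each islet list. In each of these 6 stretches the other 3 libraries had peaks. All 6 were picked as extremes among 1471 T2D and 1510 control sperm deserts, and the difference between the conditions was not tested.

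Deserts common to both lists of a tissue numbered 716 in islets and 916 in sperm, a ratio of 0.782 (0.708 to 0.863), and covered 126 Mb and 166 Mb. Of the islet desert length, 62.1% was also sperm desert, and 47.1% of the sperm desert length was also islet desert. With the limit at 50000 bp the numbers were close, at 4504 in islets and 4607 in sperm (0.978, interval 0.938 to 1.02). At 200000 bp the distance was wider, with 82 in islets and 130 in sperm (0.631, interval 0.472 to 0.838). In single libraries the order of the tissues turned at 50000 bp, where T2D islets had 6460 and control islets 6669 deserts, against 6038 in T2D and 6132 in control sperm. At 100000 bp it turned with only the best 50% of each list by score (3464 and 3572 in T2D and control islets, 3239 and 3249 in T2D and control sperm). With only peaks of at least 20 tags T2D and control islets had 1482 and 1625, against 1471 and 1510 in T2D and control sperm. That cut could remove islet peaks only, because the fewest tags of a peak were 18 in either islet list and 21 in either sperm list. The sperm counts were thus unchanged, and this setting does not compare the tissues alike. Depth is known for sperm only, so its part in the difference between tissues was not tested. Islets came from 3-week-old offspring and sperm from 16-week-old founders, so age and generation cannot be told apart from tissue.

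Few deserts of either tissue held 5 or more peaks in each list of the other, 8 in islets and 45 in sperm. Of the 716 islet deserts, 54.1% had at least 1 sperm list with no peak in them, and 1.12% (Wilson 95% interval 0.567% to 2.19%) held 5 or more in each list. Of the 916 sperm deserts, 31.6% had at least 1 islet list with no peak, and 4.91% (3.69% to 6.51%) held 5 or more. When every list was cut to the same number of best-scoring peaks, the counts were 7 in islets and 58 in sperm. The counts rest on requiring the gap in both libraries. With the gap in control islets alone there were 75 and in T2D islets alone 60, and with the gap in control sperm alone there were 136 and in T2D sperm alone 168.

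The islet desert with the most sperm peaks lay on chromosome 15 from 102722213 to 102848854 (127 kb) and held 9 T2D and 7 control sperm peaks. That was 71.1 and 55.3 peaks per Mb, against autosomal means of 73.2 in T2D and 72.7 in control sperm, so its density was close to the list mean in T2D sperm and below it in control sperm. Its peak-free stretch was 126673 bp in T2D and 126967 bp in control islets, and the edges thus nearly coincided. The peak with most tags was not the same in both sperm lists. In T2D sperm it ran from 102777289 to 102778920 with 99 tags and overlapped no control sperm peak. In control sperm it ran from 102775501 to 102776437 with 84 tags. The median of the held peaks was 56 tags in T2D and 51 in control sperm, close to the list medians of 50.

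The next, on chromosome 16 from 12073151 to 12193121 (120 kb), held 6 T2D and 8 control sperm peaks with a median of 33 and 25.5 tags. The third, on chromosome 1 from 66103650 to 66241638 (138 kb), held 5 T2D and 7 control sperm peaks. The remaining 5 held at least 5 in each list. On chromosome 9 they ran from 91239454 to 91367961 (6 T2D and 5 control peaks), from 28483128 to 28591662 (8 T2D and 5 control) and from 8915092 to 9018560 (5 T2D and 5 control). The others ran on chromosome 3 from 18851556 to 18962469 (6 T2D and 5 control) and on chromosome 8 from 17440831 to 17543467 (5 T2D and 8 control). Thus 3 of the 8 lay on chromosome 9.

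The chromosome 3 desert held a tall sperm peak. It ran from 18918349 to 18918853 with 243 tags and an enrichment of 18.08 in T2D sperm, and from 18917954 to 18918853 with 240 tags and 17.05 in control sperm. The 99th percentile of tags was 212 in T2D and 217 in control sperm, so this peak was among the tallest of both lists. No other islet desert held a sperm peak above 99 tags. Over all 8, the 50 held peaks of T2D sperm had a median of 33.5 tags against 50 elsewhere, and the 50 of control sperm 32 against 50. Of the held peaks, 62% in T2D sperm (48.2% to 74.1%) and 60% in control sperm (46.2% to 72.4%) overlapped a peak of the other sperm list, against 69.5% and 70.0% elsewhere.

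The 8 islet deserts measured 103 to 138 kb, whereas the 45 sperm deserts ranged from 100 kb to 3476 kb with a median of 246 kb. The sperm deserts lay on 16 autosomes, 7 of them on chromosome 7. In 16 of them lay 27 of the deserts shared by all libraries, which made up 50.7% of the summed length of all 45. A long gap can hold 5 peaks at a low density. In the 8 islet deserts sperm peaks, averaged over both sperm lists, stood at 42.8 to 63.3 per Mb, against an autosomal mean of 73.0. In the 45 sperm deserts islet peaks ranged from 2.73 to 55.2 per Mb with a median of 30.8, against an autosomal mean of 68.0. All 45 sperm deserts were thus below the autosomal mean of islets, and the longest had the fewest islet peaks per Mb.

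**Figure D5:**
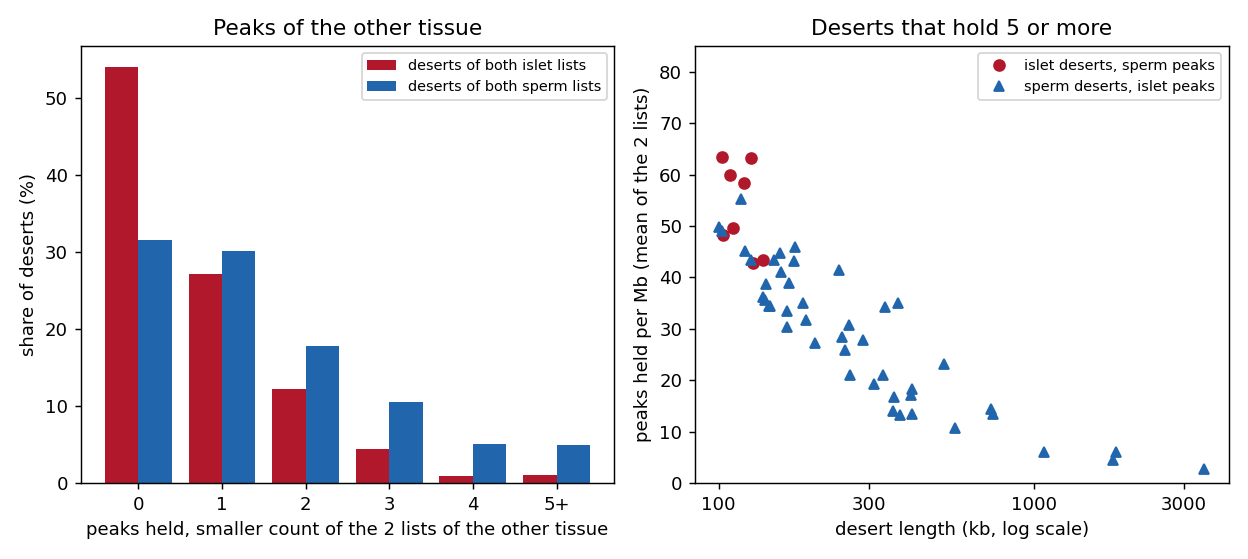
Left, share of the deserts of both islet lists (red, 716) and of both sperm lists (blue, 916) by the number of peaks they held in the other tissue, taking the smaller of its 2 lists. Right, peaks of the other tissue per Mb against desert length (kb, log scale) for the 8 islet and 45 sperm deserts that held 5 or more, with densities from 2.73 to 55.2 per Mb in the sperm deserts.

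The leading sperm deserts held 12 peaks in each islet list on chromosome 4 from 111700609 to 112219010 (518 kb), and 14 in T2D and 12 in control islets on chromosome 7 from 5318078 to 5688764 (371 kb). Another, on chromosome 3 from 91411417 to 91747837 (336 kb), held 12 T2D and 11 control islet peaks. Its densities were 35.7 and 32.7 peaks per Mb in T2D and control islets. In the first, the peak with most tags ran from 112028430 to 112029988 in T2D islets with 55 tags and from 112028506 to 112030412 in control islets with 64 tags. The chromosome 7 and chromosome 3 deserts contained no stretch that was also free of islet peaks for 100000 bp.

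Chromosome 7 gave 4 more of the leading 10. The desert from 8839654 to 10662443 (1823 kb) held 12 T2D and 10 control islet peaks, and 80.7% of it was desert in all libraries. The desert from 15559642 to 16288691 (729 kb) held 10 and 11, and that from 20616512 to 24092296 (3476 kb) held 12 and 7. The last is the stretch in which islet peaks left 4 shared deserts, among them the sixth and seventh longest. Together these 4 made up 91.6% of it. A shorter one from 110379961 to 110620781 (241 kb) held 10 peaks in each islet list, or 41.5 per Mb. Its peaks were also taller, with a median of 52.5 tags in either islet list, against list medians of 39. Its peak with most tags ran from 110443100 to 110444515 with 128 tags in T2D islets and from 110443093 to 110444298 with 114 tags in control islets.

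The others of the leading 10 began on chromosome 4 from 112345538 to 113087019 (741 kb), with 8 T2D and 12 control islet peaks. One on chromosome 13 from 27132490 to 27306973 (174 kb) held 8 peaks in each islet list, and one on chromosome 14 from 43327928 to 43735196 (407 kb) held 7 in each. On chromosome 13 density was 45.8 per Mb in either islet list. The peak with most tags there ran from 27151167 to 27152183 with 63 tags and an enrichment of 15.99 in T2D islets, and from 27151095 to 27152029 with 54 tags and 13.03 in control islets. The neighbouring deserts on chromosome 4, from 111700609 and from 112345538, were followed by another from 113108866 to 113670496 (562 kb) with 5 T2D and 7 control islet peaks.

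Over all 45 sperm deserts, 17 held more T2D than control islet peaks, 13 held fewer and 15 held equal numbers. In all, 318 T2D and 313 control islet peaks lay in them. Their median was 30.5 tags in T2D islets, against 39 elsewhere, and 30 against 39 in control islets. Enrichment was higher, with medians of 8.15 against 7.25 in T2D islets and 7.90 against 7.34 in control islets. These are the same directions as in peaks that flank the shared deserts, and part of the held peaks are themselves such flanking peaks. Here too the peaks compared were not matched for tags or width. Of the held peaks, 63.2% of T2D (57.8% to 68.3%) and 64.2% of control (58.8% to 69.3%) overlapped a peak of the other islet list, against 67.5% and 67.4% elsewhere.

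Autosomal deserts were rare beside those of the X chromosome, which the choice of members left out. Deserts shared by all libraries took up 2.99% of the autosomal span and 30.7% of that of X, where there were 295. Per 100 Mb this was 13.2 deserts on autosomes and 181 on X. On X, 0 of 350 deserts of both islet lists held 5 or more peaks in each sperm list, which allows a share of up to 0.857%, and 43 of 451 deserts of both sperm lists (9.53%) held 5 or more in each islet list. X peaks numbered 3478 in T2D and 3222 in control islets, and 1734 in T2D and 1790 in control sperm. Sperm came from males and the sex of the offspring is not given, so sex, age, generation and tissue cannot be told apart. No adjustment for the number of X copies was made here. Its part in the difference between X and autosomes was not tested.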

How the data were processed

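One MeDIP-seq library per group was examined (1 library each). The authors deposited 1 peak list per library. The submitters' processing notes name mm9 and CASAVA 1.4. Per the file headers, MACS made the sperm lists from 49 bp reads, with no input control, a p-value limit of 1.00e-05 and at most 2 tags per position. The islet caller: not given in the sources used here. Each list holds the deposited tag count per peak (whole reads, not scaled to depth), a deposited score of 10 times the negative log10 of the p-value (minimum 50) and the deposited fold enrichment over background. Per the file headers, T2D sperm had 31833988 and control sperm 31053754 unique tags. Islet depth is unknown.

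Gaps were computed with numpy 2.4.6 and pandas 2.3.3. The gap finder was tested on part of the real lists after the peaks in chosen windows had been removed. This shows only that emptied windows are found and the peaks held in them counted. The number of shared deserts was checked against bedtools 2.31.1. A peak counts as held where it lies wholly inside a gap. Intervals (scipy 1.17.1) are at 95% and cover counting error only, as PCR copies and adjacent peaks are dependent. T2D and control within a tissue have no replicates. Tissues have 2 libraries each, where an exact two-sided permutation test cannot go below p = 0.333, so tissues were described without a test. Named regions are the 10 longest, those at the limit and the median, all 8 islet deserts, the 10 sperm deserts with most islet peaks and 3 per library holding most peaks of the other condition. Others named (the chains, and another chromosome 4 sperm desert) were chosen after their values were seen. Members and lists were chosen with earlier results of these data known. Alternatives were other minimum gaps, stricter peaks, equal list lengths and left-out libraries. Sequences and genes were not analysed here, since the reference tables are on another build.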

Additional observations from a re-analysis of the deposited data

Results flagged for a closer look

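In 4 of the measures compared, the difference between T2D and control had opposite signs in islets and sperm. The signs were not opposite for the number and summed length of a library's own deserts or for the tags of flanking peaks. Nor were they for the deserts holding 5 or more peaks of the other condition or for the deserts on X. The 4 are given because their signs differed. Each side rests on 1 library per condition, and the difference between tissues was not tested. The number of deserts of at least 200000 bp in a library alone was 10 higher in T2D than in control islets (175 against 165), whereas T2D minus control was -15 in sperm (245 against 260). Median desert length was -0.857 kb in islets as T2D minus control (126.5 kb against 127.4 kb) and 0.707 kb in sperm (135.6 kb against 134.9 kb). Median width of the peaks next to shared deserts was 24 bp greater in T2D islets and -31.5 bp as T2D minus control in sperm, and their median enrichment differed by 0.15 in islets and by -0.02 in sperm. The differences in length, width and enrichment are small beside the spread of the values within a library.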

How the results depend on the processing

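No paired analysis was possible because T2D and control have 1 library each within a tissue and no result comes from a test; islet and sperm values are given by condition side by side. The limit and the peak threshold set the counts. Shared deserts numbered 2514 (214.9 Mb) at a minimum of 50000 bp, 64 (40.3 Mb) at 200000 bp, 1171 (193.8 Mb) with the best 50% of each list by score, 614 (122 Mb) with X and 1115 (193 Mb) when only regions of at least 2 lists ended a gap. They ranged from 407 to 451 (83.6 to 91.1 Mb) with 1 library left out, and stayed within 1.5 times at equal list lengths, with at least 20 tags and without the longest desert. The cut at 20 tags removed no sperm peak. In single libraries, in the order T2D islets, control islets, T2D sperm and control sperm, deserts numbered 6460, 6669, 6038 and 6132 at 50000 bp, 175, 165, 245 and 260 at 200000 bp, and 3464, 3572, 3239 and 3249 with the best 50%. The islet ratio of T2D to control turned at 200000 bp, to 1.06 by number and 1.04 by length, and the cause was not tested. With 50000 bp the shared share of length was 72.1% of T2D and 69.4% of control islets, and 77.0% of T2D and 75.5% of control sperm. With the best 50% it was 69.1%, 66.1%, 74.1% and 73.3% in that order.

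Islet deserts holding sperm peaks, 8 in all, became 19 at 50000 bp, 0 at 200000 bp, 22 with the best 50%, 47 with 3 or more peaks, 0 with 10 or more, 32 with 1 islet peak allowed and 60 to 75 with 1 islet library left out. Sperm deserts holding islet peaks, 45 in all, became 25 at 200000 bp, 188 with 3 or more peaks, 6 with 10 or more, 140 with 1 sperm peak allowed and 136 to 168 with 1 sperm library left out. Fewer tags and higher enrichment beside deserts kept their direction in all 4 libraries with all peaks within 20000 bp and with deserts of at least 200000 bp. For the latter, added after seeing the data, 21.9% of deserts lay in the proximal and 10.9% in the last part of the span. Most of those in the proximal part were on chromosomes 14 and 7. The named regions and chromosomes stayed within 1.5 times in 235 of 266 recomputed values. Many of these values could not differ, since neither another minimum gap nor the addition of X can alter the length of a long autosomal desert. Settings that left no gap at a named region gave no value and were not counted. The share is therefore no measure of how stable these results are. Islet depth is unknown, so its effect on gaps was not tested.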
